A study of Homo sapiens with 28 samples.

Results

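The MECOM locus of Kuramochi cells was described here through the ATAC-seq peaks that overlap the MECOM gene body or the 100 kb on either side of it, at chr3:168983507-169763712 of GRCh38. These were 65 of the 105048 consensus peaks in the deposited table, and 52 of the 65 overlap the gene body at chr3:169083507-169663712. The locus was chosen by a measured value: a peak beside one end of MECOM had been called lost in T320 against C, so the values of that contrast are given as a description, and nothing is read from them. Every other comparison with C or with T320 shares libraries with that choice, and the comparisons among the other groups do not.

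MECOM encodes zinc-finger transcription factors of the PRDM family. Transcripts from the upstream start of the gene include those that encode the long MDS1-EVI1 protein, which carries a PR domain related to SET methyltransferase domains. Transcripts from inner starts, far along the gene, encode EVI1, which lacks that domain and recruits co-repressors such as the CtBP proteins. The gene lies in band 3q26, which is often amplified in ovarian cancer, and in Mullerian epithelium and serous ovarian cancer it is known as a partner of the lineage factor PAX8.

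Kuramochi is an established ovarian cancer cell line that the labels call epithelial and BRCA2-mutant, so every group below carries that genotype. The groups T5 to T320 (T5, T10, T20 and T40, then T80, T160 and T320) are populations adapted to 5, 10, 20, 40, 80, 160 and 320 uM of olaparib, a PARP inhibitor, and sorted for low CD24 and high CD44. P10 and P320 are persister cells, made by 9 days at 10 or 320 uM of olaparib, with no sort named. C is the untreated population, also sorted on CD24 and CD44. Each group had 2 libraries, made from about 50000 cells each by the Omni-ATAC protocol, and the labels do not say whether they came from separate cultures, so p-values measure the spread between libraries, which may be technical. Another 8 samples of T320 cells were not analysed here. Total counts per library lay between 9627970 and 29699950. In C and the adapted groups every replicate 1 library was shallower (at most 15526256) than every replicate 2 library (at least 19092182). Of the epithelial markers, all 8 had a peak within 1 kb of an end of the gene, and the summed group means of these peaks lay between 86.5 and 166 CPM, counts scaled to library size. Of 6 blood markers only CD14 and ITGAM had such a peak, with summed group means between 8.42 and 22.9 CPM. EPCAM and CDH1 had 7.13 and 3.44 CPM in C. Peaks were found for 2 of 4 endothelial markers, VWF and TIE1, with summed group means of 4.48 CPM in T160, 4.16 CPM in T320 and 7.82 CPM in P320 against 13.8 CPM in C. Both were called lost in T160 against C, and their part in the fall of the locus was not tested. Peaks of 3 of 4 fibroblast markers summed to between 22.4 and 46.3 CPM, and no marker peak was at 0. In such bulk libraries fewer cells with an open site and less opening per cell cannot be told apart.

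RefSeq (GRCh38.p14) lists 3 start sites for MECOM, all on the minus strand. The upstream start lies at position 169663712, and the inner starts lie 516.2 kb further along the gene at 169147471 and, 932 bp beyond it, at 169146539. The 300 bases around each start, from 250 before to 50 after it, are shown because they separate the long form from EVI1 and lie at or beside peaks described in turn. Capitals mark matches to the GC box (GGGCGG), the CCAAT box (CCAAT) and the GATA motif (GATAAG) on either strand.

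upstream start, chr3:169663663-169663962: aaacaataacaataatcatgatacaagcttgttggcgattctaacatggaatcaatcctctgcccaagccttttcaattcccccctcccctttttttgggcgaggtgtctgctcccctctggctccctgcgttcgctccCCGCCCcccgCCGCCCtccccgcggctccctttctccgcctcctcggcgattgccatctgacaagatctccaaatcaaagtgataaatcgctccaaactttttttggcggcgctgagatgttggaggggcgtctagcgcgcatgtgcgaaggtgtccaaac

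inner start, chr3:169147422-169147721: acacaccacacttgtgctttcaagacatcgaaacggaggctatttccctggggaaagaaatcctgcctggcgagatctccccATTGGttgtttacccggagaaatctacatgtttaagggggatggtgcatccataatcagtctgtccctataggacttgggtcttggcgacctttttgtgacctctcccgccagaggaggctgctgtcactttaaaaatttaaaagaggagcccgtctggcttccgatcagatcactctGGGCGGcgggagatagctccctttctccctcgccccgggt

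second inner start, chr3:169146490-169146789: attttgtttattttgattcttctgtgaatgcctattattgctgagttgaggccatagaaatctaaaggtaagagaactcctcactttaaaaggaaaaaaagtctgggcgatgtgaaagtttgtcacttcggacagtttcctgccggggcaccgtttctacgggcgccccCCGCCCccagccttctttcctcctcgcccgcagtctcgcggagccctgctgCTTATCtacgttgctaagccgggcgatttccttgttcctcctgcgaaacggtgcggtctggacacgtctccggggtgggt

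The upstream window held 2 GC boxes, the first inner window held 1 GC box and 1 CCAAT box, and the second inner window held 1 GC box and 1 GATA motif. Over all 35116 RefSeq promoter windows of the same length, 45% held GGGCGG, 34.6% held CCAAT and 6.36% held GATAAG. None of the 3 windows held the AP-1 motif TGANTCA, found in 7.71% of all windows, or the TATA box TATAAA, found in 11.5%. Nor did they hold the TEAD motif GGAATG, found in 14%, or the E-box CACGTG, found in 7.26%. Both strands were searched, and a match is a match of letters only. Their GC content was 54.7%, 52.3% and 52.3%, against a median of 58.7% over all windows. They held 19, 12 and 19 CpG dinucleotides, against a median of 14. The peak at chr3:169145933-169147806 covered both inner windows, whereas no peak overlapped the upstream window: the nearest, at chr3:169661449-169663379, ended 333 bp inside the gene from the start site.

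Of the 65 peaks, 47 lay between the upstream start and the inner starts, 7 in the upstream flank and 6 in the downstream flank. The other 5 lay from the inner starts to the far end of the gene, and include the peak over the inner starts. Their widths ranged from 367 to 2466 bp, with a median of 997 bp. Mean CPM over the 20 libraries ranged from 1.15 to 26.6 with a median of 3.52, against a median of 5.56 CPM over all peaks. The 5 peaks with the highest mean were the one beside the upstream start, one 5.0 kb before that start at chr3:169667760-169669710, and 3 inside the gene at chr3:169657234-169659357, chr3:169240962-169243428 and chr3:169285599-169287762. Scaled to width, the peak beside the upstream start had 13.8 CPM per kb and the peak over the inner starts had 7.03 CPM per kb. Peaks were assigned by position alone, and RefSeq also places non-coding genes here: the peak at chr3:169240962-169243428 overlaps LOC124909454, the peak at chr3:169657234-169659357 overlaps LOC124906301, and MECOM-AS1 lies within the gene. The annotation used gives no exons, so exon and intron positions are not stated.

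Summed over the 65 peaks, accessibility was lowest in T40 and T320 and close to the untreated level in T5. The low level of T320 relative to C is a description only, since that contrast chose the locus. The sum was 496 and 604 CPM in the C libraries and 510.1 and 588 CPM in T5. It was 375 and 419 CPM in T10, 307 and 249 CPM in T20 and 248 and 235 CPM in T40, so both T40 libraries were under the lower C library. With further dose the order did not continue downward: the sum was 294 and 266 CPM in T80, 364 and 450.1 CPM in T160 and 263 and 226 CPM in T320. As group means, T40 stood at 43.9% of C, T160 at 74.0% and T320 at 44.5%. In the 9-day cells the sum was 346 and 342 CPM in P10 and 499 and 462 CPM in P320, with group means at 62.6% and 87.4% of C. The T320 libraries overlapped those of T40 and T20, the T20 and T80 libraries overlapped, and so did those of T10 and T160. T5 and P320 overlapped the range of C. Neighbours within these sets were not separated by their spread.

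**Figure D1:**
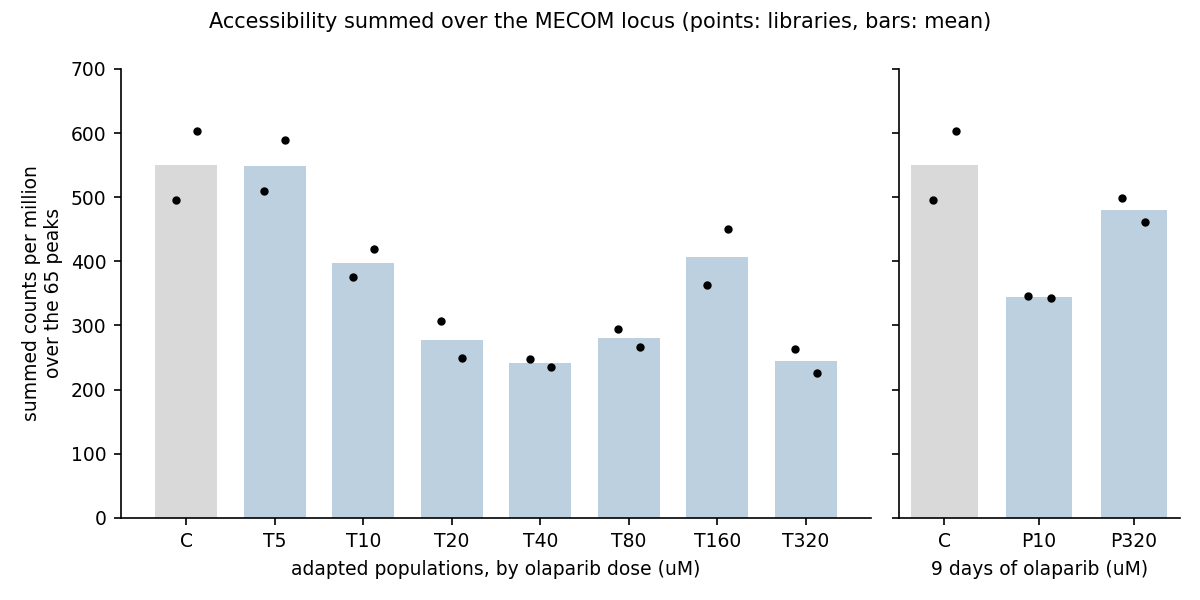
Summed CPM over the 65 peaks of the MECOM locus (vertical axis) in each library (points) with the group mean (bars), for the adapted populations and the 9-day cells, each beside C. T40 and T320 averaged 241 and 245 CPM, T160 averaged 407 CPM, and C averaged 549.8 CPM.

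Peak by peak, the highest group mean fell in T5 for 25 of the 65 peaks, in C for 22 and in P320 for 12. The lowest fell in T40 for 22 peaks, in T320 for 22 and in P10 for 9, and never in C or T5. The T320 count is a description, as the choice of the locus used that group. Such counts over all peaks are not given here. The group means of all 65 peaks relative to C show a pale T160 column between the darker T80 and T320 columns. A few peaks departed from it: the peak 636.6 kb from the upstream start, in the downstream flank at chr3:169026740-169027463, had a higher mean than C in every adapted population.

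**Figure D2:**
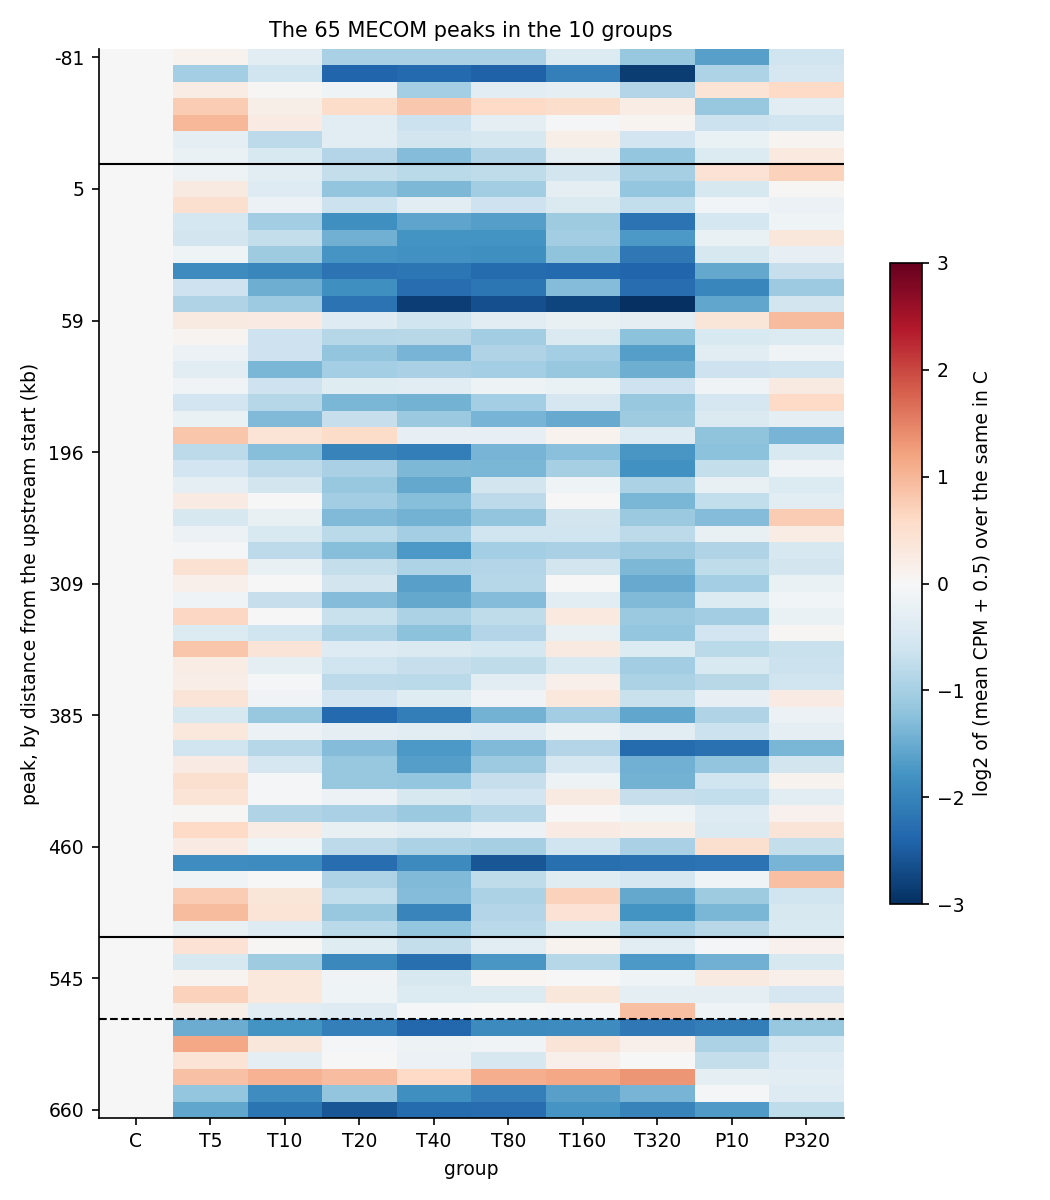
Group means of the 65 peaks, in order of their distance from the upstream start (kb, rows), as log2 of mean CPM plus 0.5 over the same in C (colour). Horizontal lines mark the upstream start, the inner starts (solid) and the far end of the gene (dashed); most rows are blue in T20 to T80 and T320, and paler in T160 and P320.

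The peak beside the upstream start was high in the 9-day cells and low in the adapted populations from T20 on. The peak beside the upstream start had 25.4 and 30.3 CPM in the T5 libraries and 25.7 and 23.1 CPM in T10. It had 20.2 and 17.0 CPM in T20 and 16.2 and 18.5 CPM in T40. It had 17.6 and 18.5 CPM in T80, 20.7 and 21.5 in T160 and 14.5 and 15.8 in T320, against 26.4 and 35.5 in C. In 9-day cells it had 43.8 and 40.5 CPM in P10 and 51.5 and 48.4 in P320, above both C libraries. So this peak was lower than C in every adapted population from T10 on and higher than C in both 9-day groups, with no overlap of libraries. In every group but T320 its change against C stayed under the fold that a call requires (an absolute log2 change of 1). It was -0.83 ± 0.18 SE in T40 (adjusted p = 0.00167), -0.55 ± 0.18 SE in T160 (adjusted p = 0.0232) and 0.69 ± 0.18 SE in P320 (adjusted p = 0.0109), by edgeR's quasi-likelihood test adjusted over all peaks. In P10 the value was 0.44 ± 0.18 SE (adjusted p = 0.0617). In T320 it was -1.03, in the contrast by which the locus was chosen. The other changes of this peak against C use the same C libraries, so their p-values are not independent of that choice. Peaks within 1 kb of gene ends rose in P320 as a class, with a median log2 change of 0.38 against C over 15325 such peaks. Scaled on that class alone, the peak beside the upstream start changed by 0.22 in P10 and 0.21 in P320. Much of its rise was thus not particular to MECOM.

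The peak over the inner starts, where EVI1 transcripts begin, had its highest values in T5. It had 18.1 and 19.9 CPM in the T5 libraries and 12.8 and 15.7 CPM in T10. It had 11.4 and 9.98 CPM in T20 and 7.30 and 9.44 CPM in T40. It had 11.2 and 10.6 CPM in T80, 14.1 and 16.0 in T160 and 11.0 and 10.8 in T320, against 12.8 and 15.1 in C. It had 14.2 and 12.6 CPM in P10 and 16.6 and 13.8 CPM in P320, overlapping the C libraries. Its lowest values were in T40. Of all comparisons it passed the call in T40 against T5 (a log2 change of -1.17 ± 0.19 SE, adjusted p = 0.00036), and not there once the median shift of its 5 Mb window was removed (-0.72). In P320 against C its log2 change was 0.12 ± 0.19 SE (adjusted p = 0.701). The peak at the far end of the gene, chr3:169081832-169082689, was low: 1.30 and 0.867 CPM in T40, 2.53 and 0.836 in T160, 1.90 and 0.959 in P10 and 3.46 and 2.82 in P320, against 5.25 and 9.85 in C. Both C libraries lay above all of these. It was called lost against C in T10, T20, T40, T80, T160 and P10, with log2 changes between -2.06 ± 0.62 SE (adjusted p = 0.0203) and -2.85 ± 0.67 SE (adjusted p = 0.00297). All of these calls share the C libraries with the contrast that chose the locus, so they are not independent of that choice. Without C replicate 2, the library with the higher value, the calls in T10, T20, T80, T160 and P10 ended, at log2 changes between -1.52 and -1.88. They also ended without T10, T80, T160 or P10 replicate 2, at -1.90, -1.70, -1.59 and -2.0, and without T10 or T20 replicate 1, at -2.21 and -1.90.

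**Figure D3:**
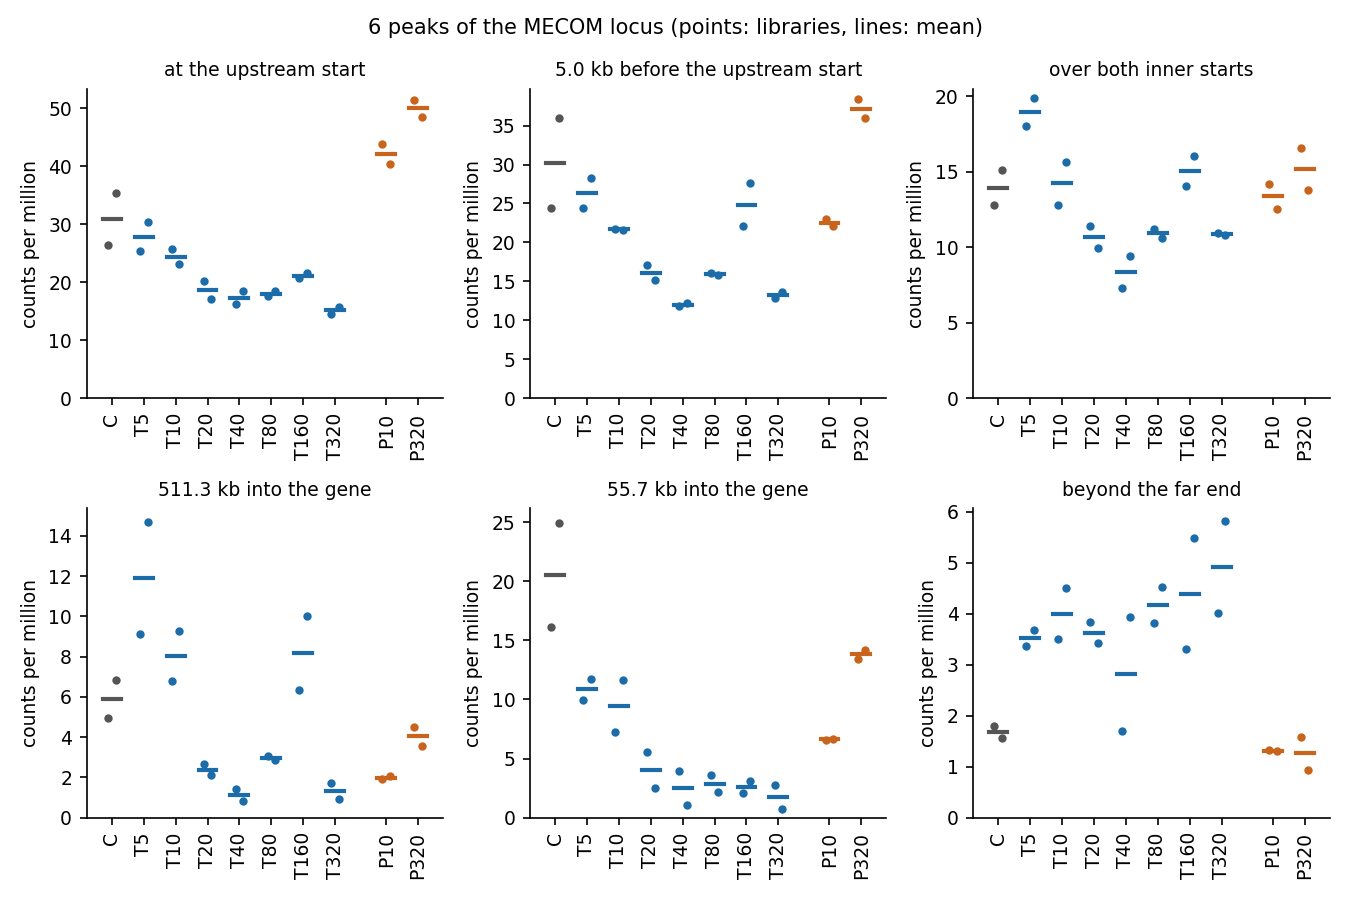
CPM (vertical axes) of 6 peaks of the locus in each of the 20 libraries (points) with the group means (lines); C is grey, adapted populations are blue and 9-day cells are orange. The peak at the upstream start lies between 40.5 and 51.5 CPM in P10 and P320 and between 14.5 and 15.8 CPM in T320, and the peak 511.3 kb into the gene is low from T20 to T80, high in T160 and low in T320.

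Among adapted populations that played no part in the choice of the locus, T40 was compared with T5 and T160 with T40. Both comparisons were added after the data were seen. T5 had the highest group mean for 25 of the 65 peaks and T40 the lowest for 22, and the T40 sum was the lowest, at 241 CPM. The direction of both comparisons was therefore known beforehand, and their counts and p-values are a description. Gained and lost peaks are those with an absolute log2 change of at least 1 whose p, adjusted by Benjamini and Hochberg over all peaks, was under 0.05. In T40 against T5, 36 of the 65 peaks were lost and 0 gained, while 7.42% gained and 8.38% lost was the share over all 105048 peaks. The median log2 change over the locus was -1.22, against 0.04 over all peaks, and 64 of the 65 changes were below 0. The peak with the smallest p lies 511.3 kb along the gene, at chr3:169152068-169152760. It had 1.40 and 0.816 CPM in T40 and 9.12 and 14.7 CPM in T5 (log2 change -3.50 ± 0.39 SE, adjusted p = 1.51e-05). Accessibility at chr3:169249778-169251917 was 5.20 and 7.14 CPM in T40 and 21.9 and 26.7 CPM in T5 (log2 change -1.95 ± 0.25 SE, adjusted p = 3.82e-05). Just inside the gene, the peak at chr3:169657234-169659357, near the upstream start, had 10.1 and 8.26 CPM in T40 and 26.9 and 31.3 CPM in T5 (log2 change -1.68 ± 0.24 SE, adjusted p = 0.000107). In all 3 peaks the libraries of the groups did not overlap. By position, 27 of 47 peaks between the upstream and inner starts and 3 of 5 at or beyond the inner starts were lost. In the flanks 5 of 7 upstream and 1 of 6 downstream were lost. The count was 18 lost without T5 replicate 2 and 19 without T40 replicate 2; a group left with 1 library is assumed to vary like the others. Removing the median shift of the 5 Mb window that holds the locus left 15 lost; 65 of the 158 peaks in that window are the locus itself.

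In T160 against T40 the direction turned. 9 of the 65 peaks were gained and 0 lost, against 0.945% gained and 0.388% lost over all peaks. The median log2 change was 0.75, against -0.03 over all peaks, and 59 of 65 changes were above 0. A peak at chr3:169152068-169152760 had 6.33 and 10.0 CPM in T160 and 1.40 and 0.816 CPM in T40 (log2 change 2.96 ± 0.39 SE, adjusted p = 0.00148). The peak at chr3:169430663-169432220 had 7.03 and 8.57 CPM in T160 and 3.0 and 2.24 CPM in T40 (log2 change 1.60 ± 0.30 SE, adjusted p = 0.0106). The peak 5.0 kb before the upstream start had 22.1 and 27.6 CPM in T160 and 11.8 and 12.2 CPM in T40 (log2 change 1.05 ± 0.19 SE, adjusted p = 0.0107). All 3 were higher in both T160 libraries than in both T40 libraries, yet the count rests on single libraries. It was 3 without T40 replicate 1, 2 without T40 replicate 2 and 0 without T160 replicate 2, 1 with the window offset, and 14 with DESeq2. In T10 against T5, by contrast, edgeR called 0 peaks gained and 0 lost, with 2.16% gained and 1.20% lost over all peaks. There 18 of the 65 had an unadjusted p under 0.05, DESeq2 called 2 lost, and the median log2 change was -0.48. The matching shares of all peaks are not given here, so neither count can be judged against them.

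The adapted populations were then set against C. These comparisons share the C libraries with each other and with the contrast that chose the locus, so their counts are not independent of it. In T5, 2 gained and 3 lost peaks stood beside 4.73% gained and 4.46% lost over all peaks. In T10, 1 gained and 12 lost stood beside 8.51% gained and 9.22% lost. In T20 it was 1 gained and 29 lost, beside 11.2% gained and 13.3% lost. T40 had the most losses of the 6, with 0 gained and 39 lost, beside 11.8% gained and 13.3% lost. T80 had 1 gained and 26 lost, beside 12.3% gained and 13.6% lost. T160 had 1 gained and 16 lost, beside 11.0% gained and 12.5% lost. The median log2 changes over the locus were 0.05, -0.40, -1.07, -1.40, -1.0 and -0.44 from T5 to T160, while the medians over all peaks lay between -0.03 and 0.04. Losses in T40 were found in 31 of 47 peaks between the upstream and inner starts (median -1.49) and in 1 of 5 at or beyond the inner starts (median -0.63). In T160 they were found in 12 of 47 (median -0.47) and 0 of 5 (median 0.02). C replicate 2 had a higher sum than C replicate 1, and without it the calls numbered 0 in T5, 5 in T10, 17 in T20, 16 in T80 and 8 in T160. Without the group's own replicate 2 they numbered 0, 6, 13, 23, 16 and 7 from T5 to T160, and T5 and T160 also fell to 2 and 10 without their replicate 1. With the window offset T20 had 16 and T40 24 calls.

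The few calls in T5 were spread along the locus. Their shares were not above those of all peaks in a way that sets the locus apart. The locus had 3.08% gained and 4.62% lost, against 4.73% gained and 4.46% lost over all peaks. The peak at chr3:169618977-169619625, 44.4 kb along the gene, had 1.54 and 1.98 CPM in T5 and 7.14 and 8.49 CPM in C (log2 change -2.14 ± 0.51 SE, adjusted p = 0.00983). Accessibility at chr3:169185465-169186131 was 1.07 and 1.22 CPM in T5 and 5.42 and 5.56 CPM in C (log2 change -2.25 ± 0.59 SE, adjusted p = 0.0166). The flank peak at chr3:169002424-169004126, which overlaps LINC01997, had 5.33 and 3.13 CPM in T5 and 12.1 and 14.6 CPM in C (log2 change -1.68 ± 0.46 SE, adjusted p = 0.0218). In all 3 the T5 libraries were under both C libraries. T5 also had 2 gains: chr3:169063763-169065816 in the downstream flank had 10.8 and 9.63 CPM in T5 and 5.25 and 3.30 CPM in C (log2 change 1.27 ± 0.38 SE, adjusted p = 0.0308), and chr3:169152068-169152760 had 9.12 and 14.7 CPM in T5 and 4.92 and 6.84 CPM in C (log2 change 1.01 ± 0.32 SE, adjusted p = 0.044). Each of these 5 calls ended without C replicate 2 and without T5 replicate 2, the losses at log2 changes between -1.32 and -2.35 and the gains between 0.62 and 1.36. Without T5 replicate 1 the calls at 169618977, 169185465 and 169063763 also ended (log2 changes -1.98, -2.17 and 1.19), and without C replicate 1 so did the one at 169152068 (0.81). Gene-end scaling ended the calls at 169002424 (-1.60) and 169063763 (1.31), total-count scaling that at 169063763 (1.31) and a trended offset that at 169152068 (0.97). In T10 the flank peak at 169002424 had 2.33 and 2.70 CPM in T10 and 12.1 and 14.6 CPM in C (log2 change -2.40 ± 0.48 SE, adjusted p = 0.0015). The peak at 169618977 had 2.62 and 0.625 CPM in T10 (log2 change -2.35 ± 0.52 SE, adjusted p = 0.00308), a call that ended without T10 replicate 2 at -1.58. A peak at chr3:169574514-169576123 had 2.84 and 3.99 CPM in T10 and 9.36 and 10.00 CPM in C (log2 change -1.48 ± 0.33 SE, adjusted p = 0.00325).

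From T20 on, the largest losses by p lay inside the gene and in the upstream flank. The peak at chr3:169278177-169279480, over LOC105374206, had 3.83 and 2.10 CPM in T20 (log2 change -2.56 ± 0.31 SE, adjusted p = 9.15e-06) and 2.80 and 4.49 CPM in T40 (log2 change -2.19 ± 0.30 SE, adjusted p = 2.8e-05), against 14.0 and 20.1 CPM in C. The peak at chr3:169138621-169139531, beyond the inner starts, had 1.58 and 1.32 CPM in T20 (log2 change -2.26 ± 0.35 SE, adjusted p = 9.08e-05) and 1.0 and 1.07 CPM in T40 (log2 change -2.73 ± 0.37 SE, adjusted p = 2.46e-05), against 5.91 and 7.92 CPM in C. The peak at 169249778 had 5.20 and 7.14 CPM in T40 and 18.3 and 22.8 CPM in C (log2 change -1.72 ± 0.25 SE, adjusted p = 4.73e-05). These 3 were all back at intermediate levels in T160, with 6.89 and 9.04, 3.23 and 4.02 and 10.8 and 18.0 CPM. Others stayed low there. The peak 55.7 kb along the gene at chr3:169607279-169608733 had 3.56 and 2.17 CPM in T80 (log2 change -2.89 ± 0.49 SE, adjusted p = 0.000202) and 2.11 and 3.14 CPM in T160 (log2 change -2.96 ± 0.49 SE, adjusted p = 0.000191), against 16.2 and 25.0 CPM in C. The upstream flank peak at chr3:169742062-169743180 had 2.58 and 0.772 CPM in T20 (log2 change -2.76 ± 0.44 SE, adjusted p = 0.000121), 1.78 and 1.41 CPM in T80 (log2 change -2.78 ± 0.44 SE, adjusted p = 0.000107) and 2.39 and 2.04 CPM in T160 (log2 change -2.29 ± 0.42 SE, adjusted p = 0.000458), against 10.3 and 11.4 CPM in C. The peak at chr3:169615576-169616833 had 1.78 and 1.46 CPM in T80 and 7.39 and 10.6 CPM in C (log2 change -2.49 ± 0.42 SE, adjusted p = 0.000205). In T160 the peak at 169618977 had 1.48 and 0.836 CPM (log2 change -2.78 ± 0.54 SE, adjusted p = 0.000767). These losses included peaks that were low through T160 and peaks that were higher there than in T40.

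The gain called most often was the downstream flank peak at 169026740, which lies in no annotated gene. It had 3.5 and 4.50 CPM in T10 (log2 change 1.27 ± 0.40 SE, adjusted p = 0.0247), 3.83 and 3.42 CPM in T20 (log2 change 1.11 ± 0.40 SE, adjusted p = 0.0384), 3.82 and 4.53 CPM in T80 (log2 change 1.33 ± 0.40 SE, adjusted p = 0.014) and 3.30 and 5.49 CPM in T160 (log2 change 1.40 ± 0.40 SE, adjusted p = 0.0109), against 1.81 and 1.56 CPM in C. Its T40 libraries, at 1.70 and 3.93 CPM, were spread and it was not called there. Each of these 4 calls ended without C replicate 2, at log2 changes between 1.0 and 1.29, and without the group's own replicate 2, at 0.98 to 1.2. The T10 call also ended without C replicate 1 (1.37) and with only the groups compared in the fit (1.26). The T20 call ended under those settings too (1.21 and 1.12), without T20 replicate 1 (1.03) and under gene-end scaling (0.91).

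**Figure D4:**
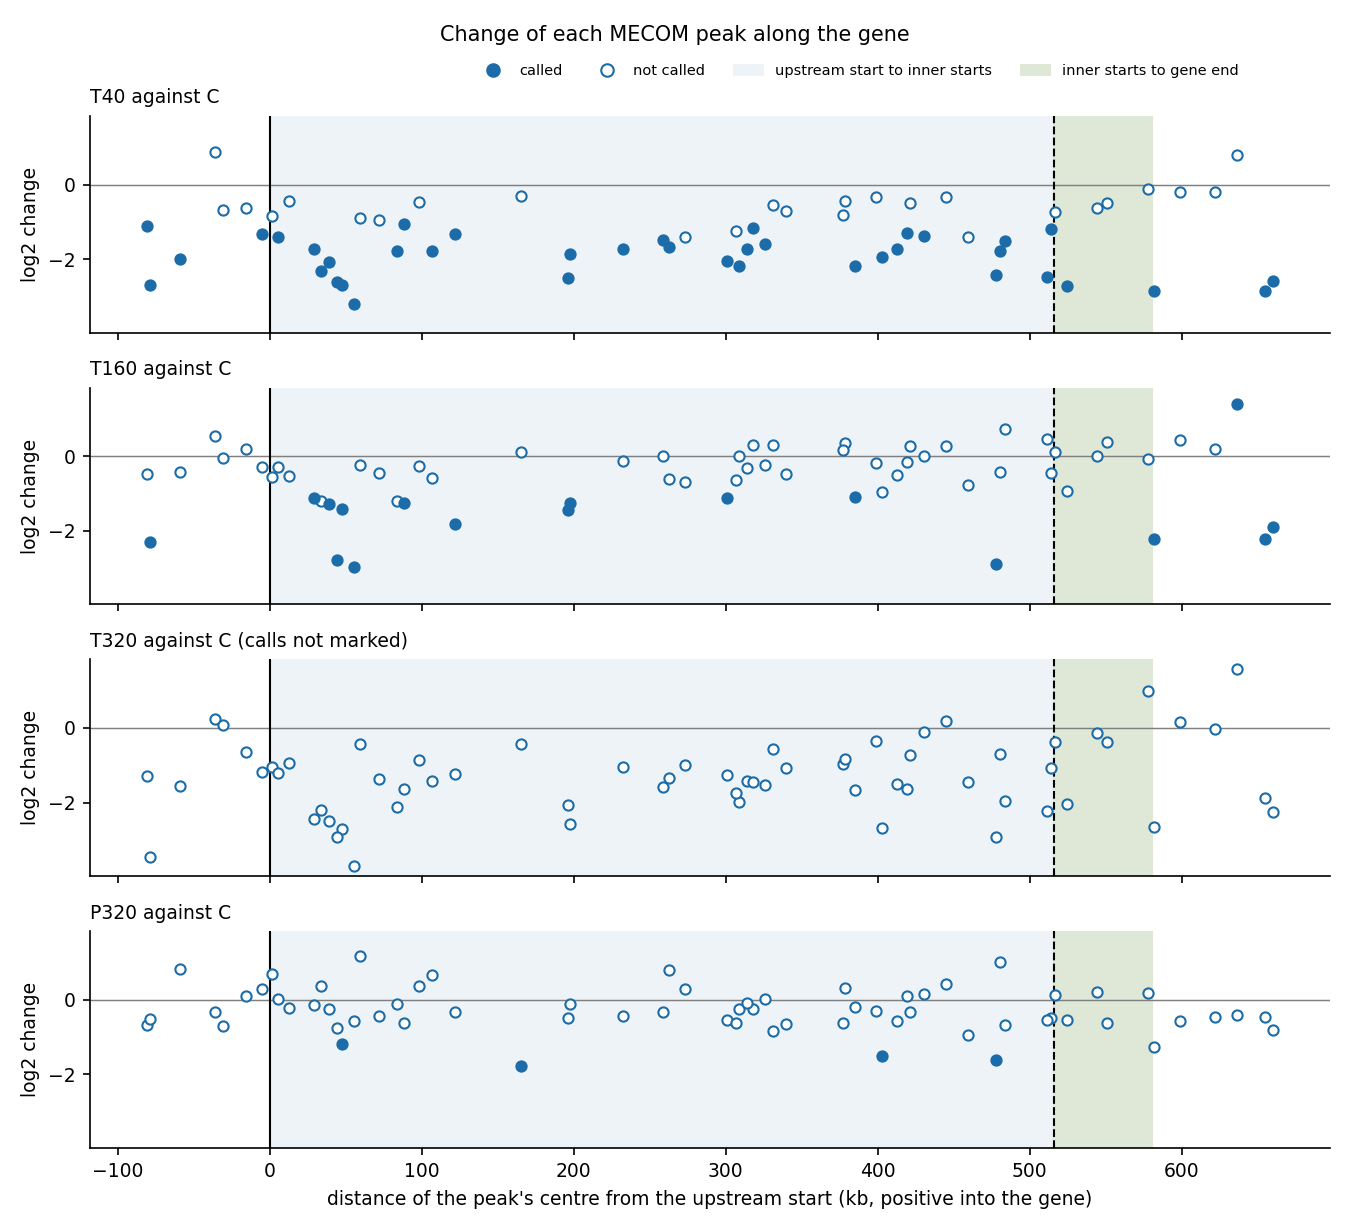
Log2 change against C (vertical axes) of each of the 65 peaks by the distance of its centre from the upstream start (kb, horizontal axis), in T40, T160, T320 and P320. Filled points passed the call and calls are not marked for T320; shading shows the stretches before and after the inner starts. In T40 39 filled points spread over the whole gene and both flanks, T160 has 17 filled points and P320 has 4.

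T320 against C, the contrast that chose the locus, is given as a description only. In it 1 gained and 40 lost peaks lay past the same thresholds, beside 15.0% gained and 15.5% lost over all peaks; nothing is read from these counts, since the choice of the locus used this contrast. The median log2 change was -1.34. The 3 largest falls were at 169607279 (2.74 and 0.762 CPM in T320 and 16.2 and 25.0 CPM in C, log2 change -3.70), at 169742062 (1.54 and 0.583 CPM and 10.3 and 11.4 CPM, -3.46) and at 169185465 (1.2 and 0.358 CPM and 5.42 and 5.56 CPM, -2.93). The 3 largest rises were at 169026740 (4.02 and 5.83 CPM in T320 and 1.81 and 1.56 CPM in C, 1.57), at chr3:169085363-169086360 (4.79 and 7.39 CPM and 1.97 and 4.05 CPM, 1.0) and at chr3:169699045-169700638 (10.0 and 9.77 CPM and 8.95 and 7.78 CPM, 0.25). At the edges of the locus, the outermost peaks inside it changed by -2.26 (169002424) and -1.28 (169744199). The first peaks outside changed by 0.20 at chr3:168977511-168978739 and by 0.07 over TERC at chr3:169764312-169765563. These are single peaks, and they do not show where the change ends.

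T320 against T160, which shares T320 with that contrast, gave 0 gained and 9 lost peaks beside 1.52% gained and 2.34% lost over all peaks, with a median log2 change of -0.74. The peak at 169152068 again showed the widest swing, with 1.71 and 0.941 CPM in T320 and 6.33 and 10.0 CPM in T160 (log2 change -2.69 ± 0.38 SE, adjusted p = 0.0008). Accessibility at chr3:169179138-169180389 was 3.25 and 0.448 CPM in T320 and 7.94 and 13.1 CPM in T160 (log2 change -2.68 ± 0.54 SE, adjusted p = 0.00768). A peak at chr3:169243745-169244722 had 3.08 and 2.02 CPM in T320 and 5.27 and 8.41 CPM in T160 (log2 change -1.47 ± 0.31 SE, adjusted p = 0.0099). In each the T160 libraries were above both T320 libraries. The count was 1 without T160 replicate 2 and 1 without T320 replicate 2, and 3 with the window offset, and the calls at 169179138 and 169243745 ended without either library. A slope on log2 dose, fitted to the summed counts of each population, was called for 2 peaks over T5 to T320, both downward, beside 3.37% gained and 2.35% lost over all peaks. These were 169607279 (slope -0.48 ± 0.08 SE log2 units per doubling, adjusted p = 0.00722) and 169742062 (slope -0.41 ± 0.10 SE, adjusted p = 0.0318). Over T5 to T160, which uses neither C nor T320, only 169607279 was called (slope -0.49 ± 0.10 SE, adjusted p = 0.0499), beside 0.609% gained and 0.983% lost. The course of the locus was not a steady fall with dose, as its summed group means were 241 CPM in T40, 407 CPM in T160 and 245 CPM in T320. Leaving out T160 raised the T5 to T320 count to 19 and the T5 to T160 count to 26. T160 was already known to be high, and these counts do not measure the shape of the course. Leaving out T20 gave 6 over T5 to T320, and leaving out T5, T10, T80 or T320 gave 1. Over T5 to T160 the count was 0 without T5, T10, T20, T40 or T80.

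In cells exposed for 9 days more peaks were lost at 10 than at 320 uM under the main scaling, in the locus and over all peaks alike. P10 against C gave 0 gained and 19 lost peaks (29.2%), beside 9.32% gained and 12.8% lost over all peaks. The median log2 change was -0.67. P320 against C gave 0 gained and 4 lost (6.15%), beside 3.94% gained and 7.91% lost, with a median of -0.33. The P320 share lost was thus below that of all peaks. The peak at chr3:169260202-169261061 had 1.68 and 1.26 CPM in P10 (log2 change -2.58 ± 0.35 SE, adjusted p = 6.49e-05) and 3.39 and 2.79 CPM in P320 (log2 change -1.51 ± 0.32 SE, adjusted p = 0.00334), against 6.4 and 11.1 CPM in C. The peak at 169615576 had 1.85 and 2.01 CPM in P10 (log2 change -2.22 ± 0.40 SE, adjusted p = 0.000566) and 4.73 and 3.23 CPM in P320 (log2 change -1.18 ± 0.38 SE, adjusted p = 0.0359), against 7.39 and 10.6 CPM in C. The outermost upstream peak at chr3:169744199-169745019 had 2.21 and 1.61 CPM in P10 and 5.33 and 8.49 CPM in C (log2 change -1.87 ± 0.31 SE, adjusted p = 0.000288). Accessibility at chr3:169497606-169498860 was 1.06 and 1.0 CPM in P320 and 3.36 and 3.68 CPM in C (log2 change -1.77 ± 0.33 SE, adjusted p = 0.00121). Without C replicate 2 the counts were 10 in P10 and 1 in P320. They were 9 and 11 without either P10 library and 2 and 1 without either P320 library. With the window offset P10 had 9 calls, 8 of them lost. The P320 libraries had 38.2% and 37.5% of their counts in peaks within 1 kb of gene ends, against 27.8% to 35.3% in the other libraries. Scaled on those peaks alone, which moves the median of all peaks by -0.49 in P320 against C, P320 against C gave 15 lost. The same scaling called 834 gained and 23628 lost among all 105048 peaks. The main scaling called 8308 of all peaks lost, so this rise in losses was not particular to the locus. Under the 3 other scalings tried the peak beside the upstream start kept a positive change in P320, between 0.21 and 0.62.

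The 2 doses were compared directly in P320 against P10, which shares no library with the choice of the locus. It gave 5 gained and 0 lost, beside 4.10% gained and 9.68% lost over all peaks, with a median log2 change of 0.47 and 56 of 65 changes above 0. A peak at chr3:169400323-169402046 had 11.5 and 11.1 CPM in P320 and 2.43 and 2.27 CPM in P10 (log2 change 2.27 ± 0.42 SE, adjusted p = 0.00128), the highest values of any group. The peak at 169744199 had 4.84 and 3.94 CPM in P320 and 2.21 and 1.61 CPM in P10 (log2 change 1.2 ± 0.31 SE, adjusted p = 0.0108), and the peak at 169138621 had 4.98 and 4.57 CPM in P320 and 2.21 and 2.22 CPM in P10 (log2 change 1.11 ± 0.32 SE, adjusted p = 0.0215). In all 3 the P320 libraries were above the P10 libraries. The peak 5.0 kb before the upstream start had 38.4 and 36.0 CPM in P320 and 23.0 and 22.1 CPM in P10, a change under the fold minimum (log2 change 0.72 ± 0.18 SE, adjusted p = 0.0105). Leaving out any of the 4 libraries left 1 or 2 calls, the window offset left 2 and scaling on gene-end peaks 1, while DESeq2 gave 8.

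Adapted and 9-day cells were compared at the same dose. At 10 uM, T10 against P10 gave 13 gained (20%) and 2 lost (3.08%), with a median log2 change of 0.13. Over all peaks 17.8% were gained and 15.1% lost. The share gained in the locus was thus near that of all peaks, and the share lost was below it. The peak at 169497606 had 4.74 and 4.89 CPM in T10 and 0.882 and 1.61 CPM in P10 (log2 change 1.94 ± 0.32 SE, adjusted p = 0.000122). The peak at 169152068 had 6.78 and 9.26 CPM in T10 and 1.90 and 2.05 CPM in P10 (log2 change 2.03 ± 0.35 SE, adjusted p = 0.000147), and the upstream flank peak at 169699045 had 6.49 and 12.6 CPM in T10 and 2.91 and 4.14 CPM in P10 (log2 change 1.46 ± 0.28 SE, adjusted p = 0.000371). The losses were at chr3:169008902-169009269, with 0.364 and 0.508 CPM in T10 and 2.87 and 2.70 CPM in P10 (log2 change -2.62 ± 0.63 SE, adjusted p = 0.00262), and at chr3:169541220-169542139, with 1.31 and 2.54 CPM in T10 and 3.79 and 4.23 CPM in P10 (log2 change -1.01 ± 0.38 SE, adjusted p = 0.0347). The peak beside the upstream start was lower in T10, at 25.7 and 23.1 CPM against 43.8 and 40.5 CPM in P10, under the fold minimum (log2 change -0.79 ± 0.18 SE, adjusted p = 0.00153). The count was 9 without P10 replicate 1 and 8 without P10 replicate 2. With the window offset the balance turned, to 4 gained and 7 lost with a median of -0.40, and 6 of the 15 calls were kept in the same direction. The balance of all 105048 peaks turned as well, from 18746 gained and 15822 lost to 13651 gained and 16820 lost. Their median with the window offset was -0.06.

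At 320 uM, T320 against P320 gave 2 gained and 31 lost, beside 19.7% gained and 14.5% lost, with a median of -1.22; this comparison shares T320 with the contrast that chose the locus. The peak beside the upstream start had 14.5 and 15.8 CPM in T320 and 51.5 and 48.4 CPM in P320 (log2 change -1.72 ± 0.18 SE, adjusted p = 9.56e-07). The peak 5.0 kb before it had 12.8 and 13.6 CPM in T320 and 38.4 and 36.0 CPM in P320 (log2 change -1.49 ± 0.19 SE, adjusted p = 5.73e-06), and the peak at 169742062 had 1.54 and 0.583 CPM in T320 and 7.55 and 7.51 CPM in P320 (log2 change -2.94 ± 0.46 SE, adjusted p = 4.44e-05). In all 3 the groups did not overlap. The gains were 169026740, with 4.02 and 5.83 CPM in T320 and 1.59 and 0.929 CPM in P320 (log2 change 1.97 ± 0.39 SE, adjusted p = 0.000411), and 169497606, with 2.05 and 3.14 CPM in T320 and 1.06 and 1.0 CPM in P320 (log2 change 1.35 ± 0.33 SE, adjusted p = 0.00256). Without T320 replicate 2 the count was 15, and the call at 169497606 ended at a log2 change of 0.99. Scaled on gene-end peaks, 4 were gained and 18 lost. The difference between the adapted and the 9-day dose effect, 320 against 10 uM, was tested in the same fit after the data were seen. At the same thresholds 0 peaks had a higher and 23 a lower dose effect in adapted cells, beside 13.6% and 10.0% of all peaks, and the 65 had a median difference of -1.24. Under gene-end scaling 15 had a lower one, and with the window offset 1 had a higher and 10 a lower one. For the peak 5.0 kb before the upstream start the fitted effect was -0.71 in adapted and 0.72 in 9-day cells, a difference of -1.43 ± 0.27 SE (adjusted p = 0.000801).

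The locus was set beside the 5 Mb segments that adjoin it. In T40 against C the median log2 change was -1.40 over the locus, -0.28 over the 263 peaks of the adjoining segment on the start side and 0.68 over the 83 peaks on the far-end side. In T160 the values were -0.44, 0.00 and 0.77. In T320, as a description, they were -1.34, -0.17 and 0.88. In P10 they were -0.67, -0.29 and -0.50, and in P320 -0.33, -0.20 and -0.20. In T40 60.0% of the locus peaks were lost, against 18.3% in the adjoining start-side segment and 7.23% on the far-end side, where 43.4% were gained. The 4 segments further out had medians between -0.31 and -0.21 in T40. Measured in each library, the median of the locus minus that of both adjoining segments was -1.14 ± 0.49 in T40, -0.45 ± 0.09 in T160, -1.19 ± 0.30 in T320, -0.41 ± 0.01 in P10 and -0.18 ± 0.07 in P320, relative to C at 0 ± 0.15 (SD, n = 2). These values have no test of their own. The labels and files used here give no DNA copy number, so its part in the locus or in the far-end segment was not tested.

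**Figure D5:**
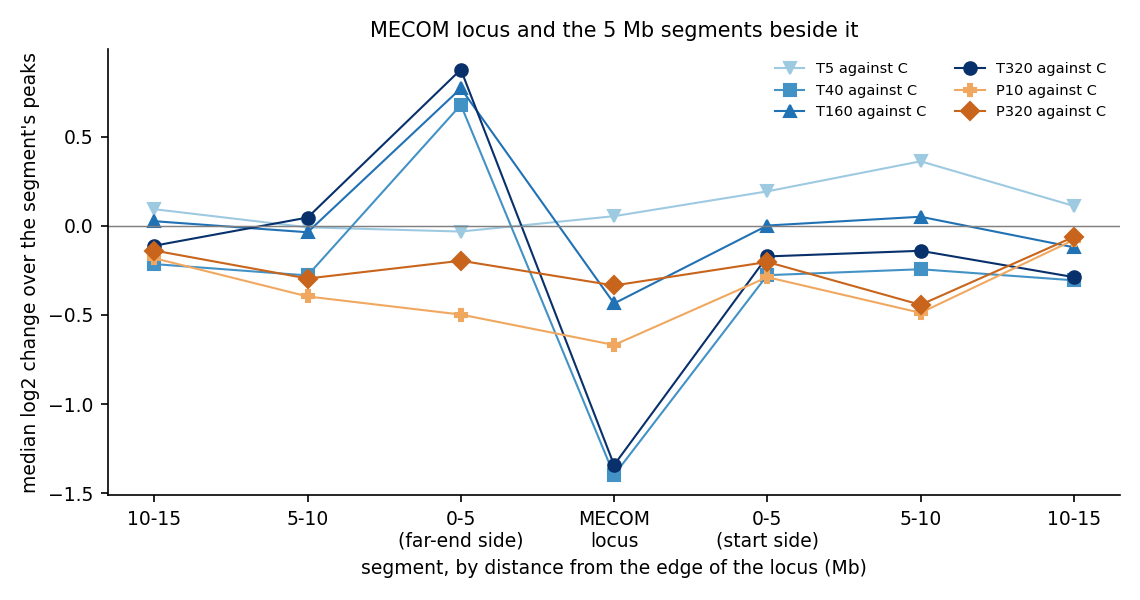
Median log2 change against C over the peaks of the MECOM locus and of 3 segments of 5 Mb on each side of it, for 6 groups (lines). The locus is the low point in T40 at -1.40 and T320 at -1.34, while the segment next to it on the far-end side is the high point at 0.68 and 0.88. T320 is shown as a description, since it was used to choose the locus.

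Among 13272 other gene-end peaks with a mean of at least 5 CPM, those whose group means over the 10 groups were most like the peak beside the upstream start were at MAN1A2 (Pearson r = 0.993 on log2 CPM plus 0.5), ATXN7L2 and SYPL2 (0.991), VANGL1 (0.989), WDR47 (0.989), and EFNA1 and SLC50A1 (0.988). All 5 lie on chromosome 1. They share the libraries and scaling of the MECOM peak, and each had its highest group mean in P320 and its lowest in T320. At MAN1A2, which encodes a Golgi mannosidase, the group means were 43.9 CPM in P320, 10.5 CPM in T320 and 24.4 CPM in C.

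Related genes are given as mean ± SD (n = 2 libraries) of the gene-end peak with the highest mean, which may lie at either end of a gene. Over all 15325 gene-end peaks, T160 against C called 4.22% gained and 4.37% lost with a median of 0.17 over those peaks. P320 against C called 14.0% gained and 1.10% lost with a median of 0.38, so a gain in P320 was common. Of the PRDM family, 1 of 17 genes had a gained peak and 0 a lost one (median log2 change 0.06) in T160 and 4 of 17 genes had a gained peak and 0 a lost one (median log2 change 0.81) in P320. Under gene-end scaling and a trended offset the T160 median was -0.13. The T160 gain was PRDM8 (8.89 ± 0.75 CPM in T160 against 3.42 ± 0.429 CPM in C, log2 change 1.36 ± 0.26 SE, adjusted p = 0.000707). The P320 gains with the smallest p were PRDM2 (23.0 ± 1.55 CPM in P320 against 9.58 ± 1.25 CPM in C, log2 change 1.26 ± 0.19 SE, adjusted p = 0.000261), PRDM4 (28.5 ± 0.753 CPM in P320 against 9.33 ± 1.47 CPM in C, log2 change 1.60 ± 0.25 SE, adjusted p = 0.000306) and PRDM16 (10.2 ± 0.113 CPM in P320 against 3.91 ± 0.733 CPM in C, log2 change 1.39 ± 0.25 SE, adjusted p = 0.001), the closest paralogue of MECOM.

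Of the EVI1 partners and co-repressors, 3 of 18 genes had a gained peak and 0 a lost one (median log2 change 0.23) in T160. These were RUNX1 (8.10 ± 1.11 CPM in T160 against 2.32 ± 0.548 CPM in C, log2 change 1.83 ± 0.32 SE, adjusted p = 0.000313), SMAD3 (13.4 ± 5.27 CPM in T160 against 2.63 ± 1.28 CPM in C, log2 change 2.29 ± 0.43 SE, adjusted p = 0.000536) and GATA1, at 1.69 CPM in T160 and 0.64 CPM in C, levels near the floor of the table. In P320, 8 of 18 genes had a gained peak and 0 a lost one (median log2 change 0.78), with the smallest p at CTBP1, a co-repressor that EVI1 binds (50.6 ± 0.162 CPM in P320 against 16.8 ± 1.30 CPM in C, log2 change 1.59 ± 0.20 SE, adjusted p = 7.62e-05), DNMT3A, a DNA methyltransferase (29.6 ± 1.61 CPM in P320 against 9.31 ± 1.56 CPM in C, log2 change 1.66 ± 0.24 SE, adjusted p = 0.000199) and MBD3, a subunit of the NuRD complex (22.0 ± 1.48 CPM in P320 against 8.79 ± 0.831 CPM in C, log2 change 1.31 ± 0.21 SE, adjusted p = 0.000356). Of the TGF-beta and SMAD genes, a pathway that EVI1 is known to repress through SMAD3, 3 of 14 genes had a gained peak and 0 a lost one (median log2 change 0.40) in T160. Among them were SMAD3, whose values are given above, and TGIF1, a co-repressor of SMAD proteins (3.6 ± 1.12 CPM in T160 against 1.02 ± 0.179 CPM in C, log2 change 1.84 ± 0.38 SE, adjusted p = 0.00112). In P320, 5 of 14 genes had a gained peak and 0 a lost one (median log2 change 0.81), with the smallest p at SKIL (50.4 ± 2.52 CPM in P320 against 17.9 ± 1.56 CPM in C, log2 change 1.49 ± 0.16 SE, adjusted p = 2.13e-05), TGFBR1 (38.3 ± 3.03 CPM in P320 against 11.4 ± 2.33 CPM in C, log2 change 1.74 ± 0.23 SE, adjusted p = 9.95e-05) and TGFB1 (40.5 ± 1.35 CPM in P320 against 19.8 ± 1.65 CPM in C, log2 change 1.03 ± 0.18 SE, adjusted p = 0.000609).

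Of the Mullerian transcription factors, 0 of 11 genes had a gained peak and 2 a lost one (median log2 change -0.25) in T160, with losses at WT1 (20.5 ± 1.2 CPM in T160 against 49.7 ± 15.0 CPM in C, log2 change -1.28 ± 0.20 SE, adjusted p = 0.00011) and SOX17 (15.2 ± 0.348 CPM in T160 against 36.7 ± 15.1 CPM in C, log2 change -1.28 ± 0.22 SE, adjusted p = 0.000279). PAX8, the partner named above, had 35.1 CPM in T160, 43.7 in P320 and 30.6 in C and was called in neither. In P320, 2 of 11 genes had a gained peak and 0 a lost one (median log2 change 0.47), at TP73 (19.8 ± 1.10 CPM in P320 against 9.56 ± 0.876 CPM in C, log2 change 1.04 ± 0.22 SE, adjusted p = 0.00283) and SOX17 (74.4 ± 0.138 CPM in P320 against 36.7 ± 15.1 CPM in C, log2 change 1.01 ± 0.21 SE, adjusted p = 0.00293). Of the serous ovarian markers with a peak, 3 of 5 were lost in T160, WT1, SOX17 and MSLN (9.37 ± 1.36 CPM in T160 against 51.1 ± 14.3 CPM in C, log2 change -2.45 ± 0.25 SE, adjusted p = 3.68e-06), and the summed group means of all 5 were 108 CPM in T40, 105 CPM in T160, 83.2 CPM in T320 and 254.5 CPM in P320, with 198 CPM in C. Such sums do not show how each marker moved, and the part of these markers in the values of the locus was not tested. Of the genes around MECOM on 3q26, 1 of 27 had a gained peak and 1 a lost one (median log2 change 0.05) in T160. This was near the share of all gene-end peaks, 4.22% gained and 4.37% lost. In P320, 2 of 27 had a gained peak and 0 a lost one (median log2 change 0.47), beside 14.0% gained and 1.10% lost. The T160 median of the 3q26 genes was -0.10 under gene-end scaling and -0.15 under a trended offset. The T160 calls were a loss at LRRC31 (7.19 ± 0.863 CPM in T160 against 18.7 ± 3.05 CPM in C, log2 change -1.39 ± 0.22 SE, adjusted p = 0.000123) and a gain at ZBBX (3.17 ± 0.194 CPM in T160 against 0.911 ± 0.221 CPM in C, log2 change 1.82 ± 0.47 SE, adjusted p = 0.00603). The P320 gains were SKIL and PLD1 (56.1 ± 3.65 CPM in P320 against 26.9 ± 11.2 CPM in C, log2 change 1.05 ± 0.31 SE, adjusted p = 0.0232). Scaled on gene-end peaks, the P320 gains fell to 1 of 17 for the PRDM family, 2 of 18 for the EVI1 partners, 1 of 14 for the TGF-beta genes, 0 of 11 for the Mullerian factors and 0 of 27 for the 3q26 genes, of which 2 were lost, with medians of 0.32, 0.30, 0.35, -0.01 and -0.01.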

How the data were processed

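ATAC-seq reads of 20 libraries, 2 in each of 10 groups, were read from 1 deposited table of counts per consensus peak, made by the authors. Per the submitters' processing notes, reads were handled on GRCh38 with tools that include MACS2, Bowtie2, HOMER 4.1, Trim Galore, SAMtools, Picard, DESeq2 and deepTools (3.1, 3.5.1), with no roles given. Whether the counts are reads or fragments, how duplicates and the transposase offset were treated, and whether starts count from 0 or 1 are not given in the sources used here; each could shift counts or positions slightly. From these counts, edgeR 4.0.16 (R 4.3.3, limma 3.58.1) was run with TMM scaling and robust quasi-likelihood fits on group means over all 105048 peaks; the low-count filter removed 0 peaks. CPM uses TMM-scaled library sizes. Standard errors were taken as the log2 change divided by the square root of F. DESeq2 1.42.0 was an alternative, and the scripts were tested on simulated data.

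The members and lists were chosen with earlier results of these data known. Named peaks were those within 1 kb of a gene end or start, the 5 with the highest mean, up to 3 gained and 3 lost with the smallest p per comparison, the 3 largest rises and falls in T320 against C, the 5 most similar gene-end peaks, and of each list the 3 called genes with the smallest p. Where the replicate number was a block, it is given in the closing section. Of the genes this rule names, 1 is not reported here.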

Additional observations from a re-analysis of the deposited data

Results flagged for a closer look

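Of the start and high peaks, 4 had a log2 effect of 320 against 10 uM olaparib that differed between adapted cells (T320 minus T10) and 9-day cells (P320 minus P10), by an interaction term in edgeR's fit over all peaks and an absolute difference of at least 1. At chr3:169667760-169669710, 5.0 kb before the upstream start, the difference was -1.43 ± 0.27 SE (adjusted p = 0.000801): the effect was -0.71 in adapted and 0.72 in 9-day cells. At chr3:169240962-169243428, 421.5 kb along the gene, over LOC124909454, the difference was -1.09 ± 0.30 SE (adjusted p = 0.0116): the effect was -0.66 in adapted and 0.43 in 9-day cells. At chr3:169285599-169287762, 377.0 kb along the gene, the difference was -1.15 ± 0.37 SE (adjusted p = 0.0271): the effect was -0.91 in adapted and 0.23 in 9-day cells. At chr3:169657234-169659357, 5.4 kb along the gene, over LOC124906301, the difference was -1.34 ± 0.33 SE (adjusted p = 0.00581): the effect was -0.82 in adapted and 0.53 in 9-day cells. The peak beside the upstream start, at chr3:169661449-169663379, had a difference of -0.93 ± 0.25 SE (adjusted p = 0.0113), under that minimum. Gene-end scaling brought the differences at 169240962 and 169285599 to -0.78 and -0.83 and a trended offset to -0.82 and -0.91, which ended both calls, and total-count scaling ended that at 169240962 (-1.0). Under gene-end scaling the 9-day effect at 169285599 was -0.02. The call at 169240962 also ended without P320 replicate 1, T10 replicate 2 or T320 replicate 1 (-1.0, -0.96 and -0.97), and that at 169285599 without T10 replicate 2 or T320 replicate 1 (-0.92 and -1.07) and without any 1 of the 4 9-day libraries (between -1.13 and -1.19). With the window offset none of the 4 differences passed (-0.43 to -0.77). The other 2 peaks, 169667760 and 169657234, kept the call under the other scalings and without each library in turn. The difference uses T320, a group of the contrast that chose the locus, and the 9-day cells had no sort named, so sort and exposure cannot be told apart here.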

How the results depend on the processing

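With TMM scaling on gene-end peaks the number of called locus peaks was 3 in T5 against C, 15 in P320 against C, 1 in P320 against P10, 2 in T10 against T5 and 0 in trend T5 to T160, and 15 in the interaction of dose and exposure. With the window offset the number of called locus peaks was 16 in T20 against C, 24 in T40 against C, 26 in T320 against C, 9 in P10 against C, 2 in P320 against P10, 3 in T320 against T160, 15 in T40 against T5 and 1 in T160 against T40, and 11 in the interaction. With only the groups compared in the fit the number of called locus peaks was 8 in T5 against C, 9 in P320 against P10 and 2 in T10 against T5. With the slope taken in the 20-library fit the number of called locus peaks was 7 in trend T5 to T320 and 3 in trend T5 to T160. With total-count scaling the number of called locus peaks was 3 in P320 against P10 and 4 in trend T5 to T320. With no fold minimum the number of called locus peaks was 10 in P320 against P10. With a trended offset the number of called locus peaks was 13 in P320 against P10 and 1 in T10 against T5. With DESeq2 the number of called locus peaks was 8 in P320 against P10, 2 in T10 against T5 and 14 in T160 against T40. Under gene-end scaling the summed level against C had a log2 change of -1.40 in T40, -0.90 in P10, -0.68 in P320. With the fixed 5 Mb window, its 65 locus peaks left out, as the neighbour, the locus minus window difference was -0.0049 in T5, -0.74 in T10, -1.29 in T20, -1.26 in T80, -0.73 in T160, -1.61 in T320, -0.25 in P10. Leaving out 1 library or population at a time, called peaks ranged from 0 to 4 in T5 against C, 5 to 15 in T10 against C, 13 to 28 in T20 against C, 23 to 42 in T40 against C, 16 to 30 in T80 against C, 7 to 18 in T160 against C, 23 to 44 in T320 against C (described only), 9 to 20 in P10 against C, 1 to 3 in P320 against C, 8 to 13 in T10 against P10, 15 to 38 in T320 against P320, 1 to 2 in P320 against P10, 1 to 13 in T320 against T160, 18 to 38 in T40 against T5, 0 to 10 in T160 against T40, 1 to 19 in trend T5 to T320, 0 to 26 in trend T5 to T160, 17 to 28 in the interaction. Same-numbered libraries had correlated deviations of 0.17 to 0.58 among C and adapted groups and of -0.0955 to -0.0003 with a 9-day group, over 2 numbers only and with depth differing between the numbers, so the numbers were not taken to pair them. With a replicate block the called peaks were 10 in T5 against C, 10 in P320 against P10, 3 in T10 against T5, 14 in T320 against T160, 14 in T160 against T40. For 78 named values, 891 of 1014 alternative values kept direction and call, 116 lost the call, 7 gained it and 0 changed sign; the causes were not tested, except that the window offset removes part of the locus's own shift by construction. With 2 libraries a group, a fall to 1 library carries no spread of its own.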
